A study of Mus musculus with 6 samples.

Results

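Calponins, transgelins, tropomyosins, caldesmon, smoothelin and leiomodin bind actin filaments and set how smooth muscle cells build and use them. The 10 genes described here, Cnn1, Cnn2, Cnn3, Tagln, Tagln2, Tpm1, Tpm2, Cald1, Smtn and Lmod1, were taken by symbol from the 37309 genes of the deposited table. The rule uses only the symbols, but the set was drawn up with earlier results of these data known. Each symbol matched 1 gene, and all 10 were among the 15781 genes tested, those with a scaled read count of 10 or more in at least 2 libraries. In smooth muscle, tropomyosin lies along the actin filament and governs the access of myosin to it, while calponin and caldesmon hold back the myosin ATPase until calcium, calmodulin or phosphorylation releases them. Transgelin cross-links actin filaments, leiomodin nucleates new ones, and smoothelin associates with filament bundles. Several of these genes are classical markers of the contractile state of vascular smooth muscle, and many are transcribed through serum response factor (SRF), which binds a sequence called the CArG box.

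The RNA came from smooth muscle of the descending aorta, taken from mouse embryos of embryonic day 14.5, and 2 libraries were sequenced for each of 3 Jag1 genotypes. Jag1 encodes a membrane ligand of the Notch receptors. The wildtype group was JAG1 lox/lox Cre-, with floxed alleles and no Cre recombinase. The heterozygous group was JAG1 lox/+ Cre+ and the knockout group JAG1 lox/lox Cre+. Any comparison with wildtype is therefore also one of Cre+ with Cre-, while knockout and heterozygous both carried Cre. The labels do not name the promoter that drives Cre, the strain, or whether the 2 libraries of a group came from separate animals, so the p values measure only the spread between these libraries, which may be technical.

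Between 17323962 and 28123670 reads fell in genes per library, and 1 read was worth 0.774 to 1.22 units of the scaled read count. The deleted gene fell in the order of its labels. Jag1 measured 1965 and 1885 scaled counts in wildtype, 492 and 584 in heterozygous and 19.9 and 35.4 in knockout libraries. Its heterozygous mean was 28.0% of the wildtype mean, and its knockout mean was 1.44% of it. The median gap between the 2 libraries of a group over all tested genes was 0.12 log2 units in wildtype, 0.11 in heterozygous and 0.23 in knockout. All 7 smooth muscle defining markers outside the 10 genes (Acta2, Myh11, Mylk, Actg2, Des, Myocd and Kcnmb1) were detected in every library. Against wildtype all 7 fell in knockout, with a median log2 change of -1.37. In heterozygous libraries 4 fell and 3 did not pass, with a median of -0.77. Acta2 alone held 120179 and 111134 scaled counts in wildtype and 90703.5 and 79073.5 in knockout. The sums of the 7, mostly Acta2, ran from 131461 to 141869 in wildtype, 115255 to 116351 in heterozygous and 85429 to 97575 in knockout. Summed counts of 15 macrophage and leukocyte markers, none of them at 0, were 31009 to 31196, 60240 to 65097 and 12388 to 13102 in the same order; all 15 fell in knockout and 13 rose in heterozygous against wildtype. For 10 fibroblast and adventitial markers, none at 0, they were 3002 to 3155, 6399 to 6488 and 3550 to 3582. Members of that list went both ways in knockout against wildtype: Pdgfra rose, Dcn and Col14a1 fell and 7 did not pass, with a median of -0.38. In heterozygous libraries 6 of the 10 rose. For 12 endothelial markers, with Pecam1, Tie1 and Cldn5 at most at 9.12, the sums were 5033 to 5182, 3650 to 3892 and 2868 to 3341, of which Flt1 took 3412 and 3403 in wildtype and 660 and 569 in knockout. Of the 7 tested, Flt1, Emcn and Vwf fell, Kdr rose and 3 did not pass in the knockout, with a median of 0.29. Summed counts of the striated muscle markers lay between 180 and 282 in all 6 libraries, with Myh3, Tnnc1 and Ckm at 0. Chondrocyte markers summed to 417 to 427, 551 to 607 and 798 to 1020, with Lect1 at 0; of 8 tested, 3 rose, 1 fell and 4 missed the threshold in knockout against wildtype. The part of these cell types in the results below was not tested. The Y-linked Ddx3y measured 1102 and 1207 scaled counts in wildtype and 973 and 999 in heterozygous libraries, but 5.44 and 12.2 in the knockout libraries. Xist, which is transcribed from the inactive X of female cells, measured 3329 and 3440 in wildtype, 3698 and 4351 in heterozygous and 5622 and 5785 in knockout libraries. Transcripts of both kinds were thus present in the wildtype and heterozygous libraries, and sex makeup and the knockout cannot be told apart.

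Promoter windows, 250 bases before to 50 after the annotated start, were available for 9 of the 10 genes from RefSeq (GRCm38.p6), with 2 windows for Cald1; Tagln had no entry. Those of Cnn1, Tpm1 and Tpm2 are shown because these genes fell in the knockout. That of Cnn2 is shown because it alone held a match to the CArG box. Both strands were searched for the CArG box and for TGGGAA, the core to which RBPJ, the DNA-binding partner of Notch, attaches. Capitals mark a match, and windows without capitals held neither. The windows lie at chr9:22099003-22099302 (plus strand, Cnn1), chr9:67049164-67049463 (minus strand, Tpm1), chr4:43523505-43523804 (minus strand, Tpm2) and chr10:79988350-79988649 (plus strand, Cnn2), each written 5′ to 3′ along the gene.
Cnn1: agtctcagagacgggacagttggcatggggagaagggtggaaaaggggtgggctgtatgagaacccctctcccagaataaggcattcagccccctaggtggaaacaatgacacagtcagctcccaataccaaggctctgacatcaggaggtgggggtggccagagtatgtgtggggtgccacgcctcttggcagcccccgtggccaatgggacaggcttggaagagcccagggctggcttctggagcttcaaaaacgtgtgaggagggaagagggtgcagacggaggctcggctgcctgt
Tpm1: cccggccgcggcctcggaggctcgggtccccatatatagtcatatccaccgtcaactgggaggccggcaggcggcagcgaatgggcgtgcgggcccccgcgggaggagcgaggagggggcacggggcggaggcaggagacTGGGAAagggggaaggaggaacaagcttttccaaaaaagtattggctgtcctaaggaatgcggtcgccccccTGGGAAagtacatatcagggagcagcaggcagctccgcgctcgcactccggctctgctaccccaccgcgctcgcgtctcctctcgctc
Tpm2: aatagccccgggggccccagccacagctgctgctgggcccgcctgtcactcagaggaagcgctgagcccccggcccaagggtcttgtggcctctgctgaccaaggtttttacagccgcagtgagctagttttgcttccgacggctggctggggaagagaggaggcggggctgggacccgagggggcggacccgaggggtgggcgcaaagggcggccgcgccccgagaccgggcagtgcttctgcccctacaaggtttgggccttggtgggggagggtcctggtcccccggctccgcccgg
Cnn2: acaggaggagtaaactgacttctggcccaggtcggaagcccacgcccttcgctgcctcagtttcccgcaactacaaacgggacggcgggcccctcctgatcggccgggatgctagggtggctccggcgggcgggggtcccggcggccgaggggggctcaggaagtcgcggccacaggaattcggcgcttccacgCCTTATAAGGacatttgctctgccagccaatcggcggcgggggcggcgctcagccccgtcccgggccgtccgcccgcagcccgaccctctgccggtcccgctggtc

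The CArG match of Cnn2, the only one in the 10 windows of these genes, reads CCTTATAAGG and starts 56 bases before the annotated start. Sequences close to a CArG box but not matching it were not counted. A CArG match was present in 535 of 32851 mouse windows of the same length, or 1.63%. TGGGAA was found in Tpm1, starting 110 and 38 bases before the start, and on the other strand in Smtn, as TTCCCA 68 bases before it, against 8397 of all windows (25.6%). TATAAA, searched likewise but not capitalized, was in 1 of the 2 Cald1 windows and in 13.6% of all windows. These matches do not overlap each other. No match in Cnn1 or Tpm2 says only that these letters are not in this window. The windows also differed in base composition: GC content was 59.3% in Cnn1, 66.3% in Tpm1, 70.3% in Tpm2 and 70.7% in Cnn2, and in the other windows it ran from 47.0% and 50.3% for Cald1 to 78.3% for Cnn3, against a median of 52.7% over all windows.

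In the knockout, 3 of the 10 genes fell against wildtype, none rose and 7 did not pass at an adjusted p under 0.05 (limma, Benjamini-Hochberg over all 15781 genes). The 3 were Cnn1, the smooth muscle calponin, and the tropomyosins Tpm1 and Tpm2. Among all tested genes 12.5% passed in this comparison, 7.1% lower and 5.42% higher. The median log2 change of the 10 genes was -0.15, beside a median of -0.002 over all tested genes, and it ranged from -0.77 for Cnn1 to 0.09 for Tagln2. In bulk RNA, fewer cells that express a gene and less of its RNA per cell cannot be told apart. Heterozygous against wildtype, 1 of the 10 genes passed, Cnn1, which fell. The share of all genes that passed there was 8.07%, with 2.74% lower and 5.33% higher.

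**Figure D1:**
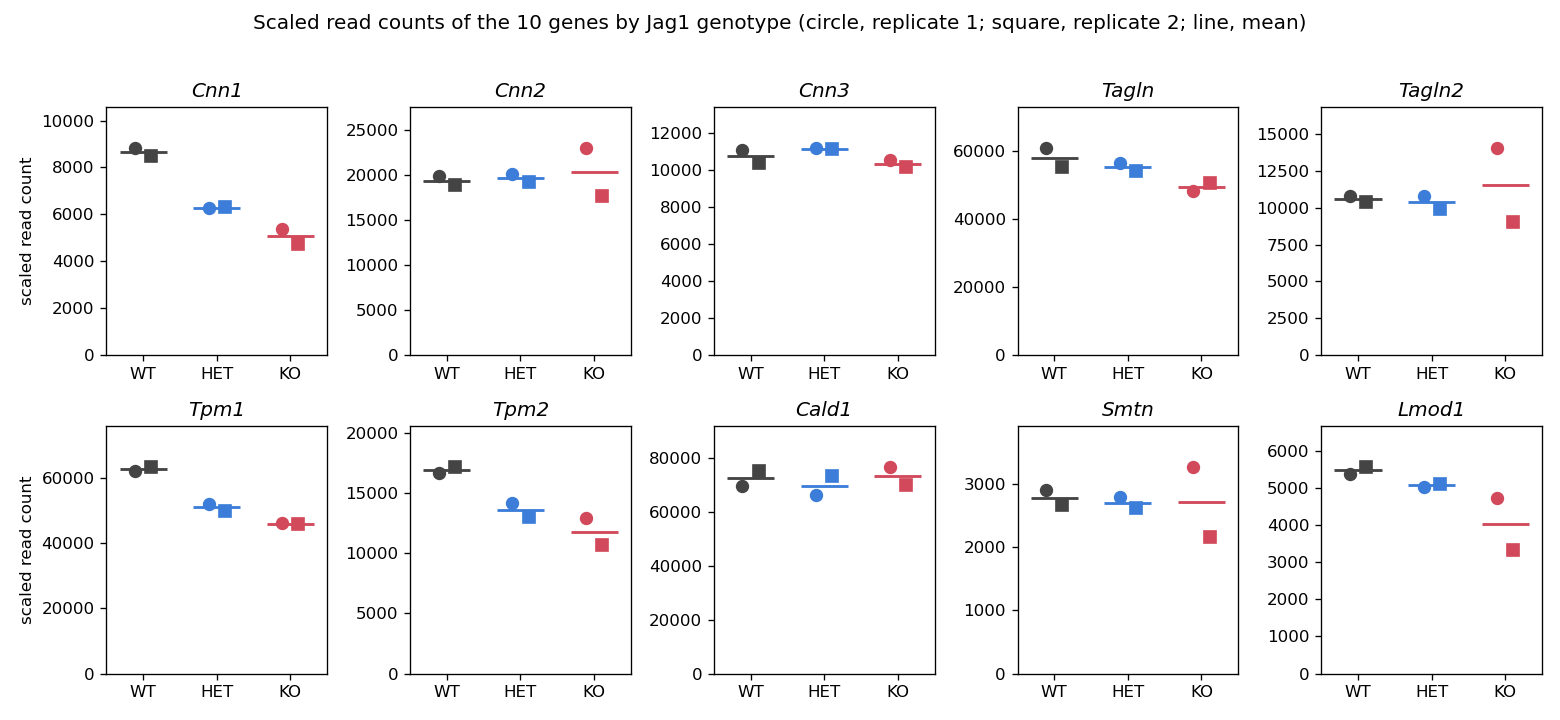
Scaled read counts (vertical axis, from 0, own scale per gene) of each gene in wildtype (WT), heterozygous (HET) and knockout (KO) libraries; circles are replicate 1, squares replicate 2 and lines the mean of 2. Cnn1, Tpm1, Tpm2 and Lmod1 step down from wildtype to knockout without overlap, and the knockout libraries of Tagln2, Smtn and Cnn2 lie on both sides of the other 4.

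Of the calponins, Cnn1 had the lowest adjusted p of the 10 genes in both comparisons with wildtype. Cnn1 (ENSMUSG00000001349, chromosome 9) encodes calponin 1, the form typical of differentiated smooth muscle. It measured 8810 and 8508 scaled counts in wildtype, 6260 and 6292 in heterozygous and 5385 and 4754 in knockout libraries. Every heterozygous library was below every wildtype library and above every knockout library. The knockout mean of 5069 ± 446 (SD, n = 2) was 58.5% of the wildtype mean of 8659 ± 213, and the heterozygous mean of 6276 ± 22.8 was 72.5% of it. The log2 change in the knockout was -0.77 ± 0.09 (SE, limma adjusted p = 0.000489), which as a percentage of wildtype has a 95% confidence interval of 50.8% to 67.2%. It also passed in all 17 alternative settings run, with adjusted p from 2.55e-10 to 0.0163. The heterozygous change was -0.46 ± 0.09 (limma adjusted p = 0.0121) and passed in 12 of those 17. It did not pass without a mean trend (adjusted p = 0.0807) or in the limma fits without heterozygous replicate 1 (0.152), heterozygous replicate 2 (0.147), wildtype replicate 1 (0.165) or wildtype replicate 2 (0.118). In the authors' deposited table the adjusted p values of Cnn1 were 6.97e-07 for knockout and 0.0118 for heterozygous against wildtype.

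Cnn2 and Cnn3, whose products calponin 2 and calponin 3 occur in many cell types besides smooth muscle, did not pass in any comparison. Cnn2 (ENSMUSG00000004665, chromosome 10) measured 19873 and 18933 in wildtype, 20177 and 19242 in heterozygous and 22991 and 17753 in knockout libraries. The 2 knockout libraries were the highest and the lowest of the 6, and the 3 groups overlapped. The knockout difference was 0.06 ± 0.12 on the log2 scale (limma adjusted p = 0.813), with a 95% interval of -0.21 to 0.33. Leaving out knockout replicate 1 gave -0.13, and leaving out replicate 2 gave 0.25, which passed (limma adjusted p = 0.0191). Cnn3 (ENSMUSG00000053931, chromosome 3) measured 11083 and 10372, 11160 and 11122, and 10526 and 10148 in the same order, a narrow band across genotypes. Its knockout difference was -0.05 ± 0.08 (limma adjusted p = 0.745), with a 95% interval of -0.24 to 0.13. The antisense gene Gm42928 covers 17.7% of its exon bases in the GRCm38 annotation.

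Per length, Cnn1 was the smallest of the calponin transcripts in every library. Wildtype levels in deposited RPKM, reads per kilobase of gene and library size, were 249 for Cnn2, 192 for Cnn3 and 131 for Cnn1. Of the summed calponin RPKM, Cnn1 made up 22.7% and 23.1% in wildtype, 17.1% and 17.6% in heterozygous and 14.4% and 15.0% in knockout. Cnn2 held 43.5% and 43.6%, 46.8% and 45.6%, and 52.2% and 47.3%. These shares rest on deposited lengths of 2368 (Cnn1), 2794 (Cnn2) and 2003 bases (Cnn3). The exon unions in GRCm38 are 2736, 2460 and 3037 bases. The log2 ratio of Cnn1 to Cnn2 scaled counts within a library, which no scaling of whole libraries can alter, was -1.17 and -1.15 in wildtype, -1.69 and -1.61 in heterozygous and -2.09 and -1.90 in knockout. That of Cnn1 to Cnn3 was -0.33 and -0.29, -0.83 and -0.82, and -0.97 and -1.09. Neither ratio overlapped between any of the groups. With 2 libraries a group the exact permutation test of such a ratio cannot go below a two-sided p = 0.333, the value found for both ratios in knockout against wildtype.

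**Figure D2:**
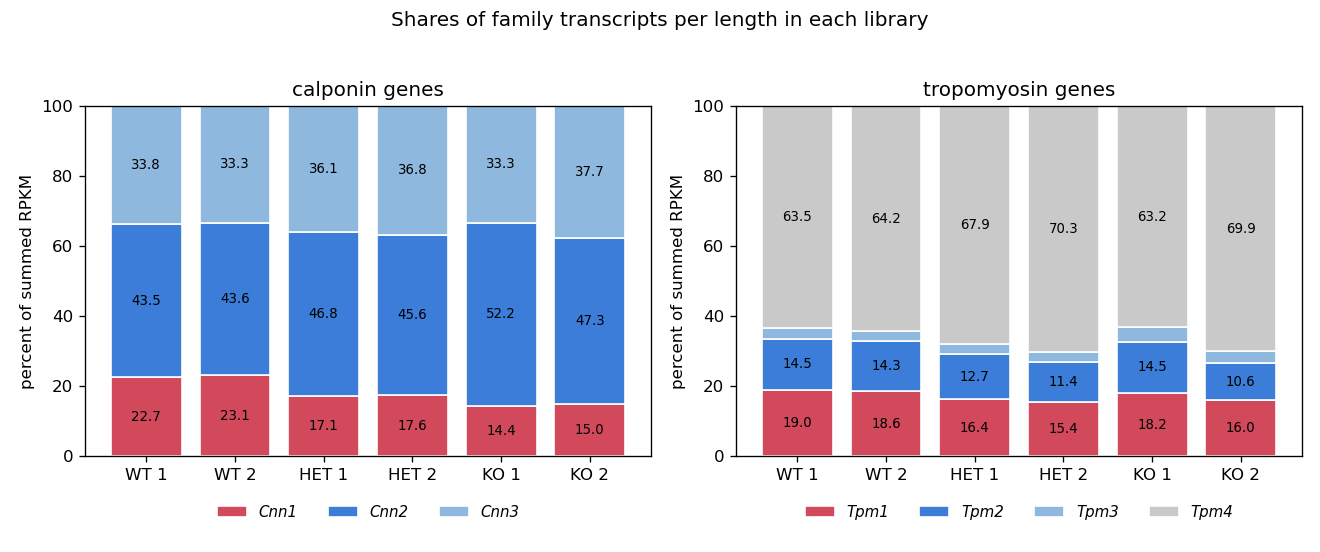
Percent of the summed RPKM (vertical axis) of the 3 calponin genes and of the 4 tropomyosin genes in each of the 6 libraries (bars); numbers are shares above 6%. The Cnn1 share runs from 22.7% and 23.1% in wildtype to 14.4% and 15.0% in knockout. Tpm4 holds 63.2% to 70.3% of the tropomyosin sum in every library. Both sums rest on deposited gene lengths, which exceed the exon unions of Tpm1 and Tpm2 in GRCm38 and fall short of that of Cnn3.

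Tagln, an abundant transcript whose product SM22-alpha binds actin in smooth muscle, did not pass in any comparison. Tagln (ENSMUSG00000032085, chromosome 9) measured 60625 and 55307 scaled counts in wildtype, 56264 and 54086 in heterozygous and 48281 and 50458 in knockout libraries. Both knockout libraries were below the other 4, while heterozygous and wildtype overlapped. The knockout mean was 85.2% of wildtype, a log2 difference of -0.23 ± 0.09 (limma adjusted p = 0.148; unadjusted p = 0.0314). Without knockout replicate 2 it was -0.26 and passed (limma adjusted p = 0.0243). At 1312 RPKM in wildtype, Tagln had the highest level per length of the 10 genes and rank 18 of the 13579 protein-coding genes tested. In the GRCm38 annotation, an antisense gene, Gm48529, covers 62.4% of the exon bases of Tagln and is not in the deposited table, and Pcsk7 on the other strand covers 5.43%. Whether strand was used in counting is not given in the sources used here, so reads of these partners cannot be told apart from those of Tagln.

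Tagln2, the more widely expressed transgelin, was split by the knockout libraries. Tagln2 (ENSMUSG00000026547, chromosome 1) measured 10803 and 10384 in wildtype, 10826 and 9907 in heterozygous and 14030 and 9010 in knockout libraries. Knockout replicate 1 was the highest and knockout replicate 2 the lowest of the 6. Their gap of 0.64 log2 units exceeded that of 88.6% of all tested genes in the knockout group. The knockout difference was 0.09 ± 0.17 (limma adjusted p = 0.808; 95% interval -0.30 to 0.47). It passed in opposite directions with 1 knockout library left out: -0.23 without replicate 1 (limma adjusted p = 0.0385) and 0.41 without replicate 2 (limma adjusted p = 0.000245). By the deposited lengths, Tagln took 90.1% ± 0.32 of the summed transgelin RPKM in wildtype and 89.8% ± 0.33 in heterozygous (SD, n = 2). In the 2 knockout libraries it took 85.1% and 90.3%. Tagln3, the neuronal transgelin, stayed at or below 11.8 scaled counts and was not tested.

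The tropomyosins Tpm1 and Tpm2, the main muscle tropomyosin genes, both fell in the knockout. Tpm1 (ENSMUSG00000032366, chromosome 9) measured 61974 and 63205 scaled counts in wildtype, 51967 and 49802 in heterozygous and 46053 and 45675 in knockout libraries. The 3 groups did not overlap, and the 2 knockout libraries were 0.01 log2 units apart. The knockout mean was 73.3% of wildtype, a log2 change of -0.45 ± 0.08 (limma adjusted p = 0.00726), with a 95% interval of 64.2% to 83.6% of wildtype. Tpm2 (ENSMUSG00000028464, chromosome 4) measured 16657 and 17130 in wildtype, 14129 and 12979 in heterozygous and 12907 and 10662 in knockout libraries. Its groups did not overlap either. The knockout mean was 69.8% of wildtype, a log2 change of -0.53 ± 0.11 (limma adjusted p = 0.0099), with a 95% interval of 58.9% to 81.9%.

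Heterozygous values of both tropomyosins were lower than wildtype without passing: -0.30 ± 0.08 for Tpm1 (limma adjusted p = 0.0671) and -0.32 ± 0.11 for Tpm2 (limma adjusted p = 0.120). Fitted on the heterozygous and wildtype libraries alone, both passed (limma adjusted p = 0.00281 for Tpm1 and 0.000586 for Tpm2). That fit also called more genes in all, 3029 of 15545, against 1274 of 15781 in the fit of all 6 libraries. On the recovered reads Tpm1 also passed with edgeR (adjusted p = 0.0408) and DESeq2 (adjusted p = 0.0348). The knockout calls were lost without wildtype replicate 1 (limma adjusted p = 0.0871 for Tpm1 and 0.0890 for Tpm2) and without wildtype replicate 2 (0.107 and 0.113). The Tpm2 call was also lost without a mean trend (limma adjusted p = 0.0715). The log2 ratio of Tpm1 to Tpm2 within a library was 1.90 and 1.88 in wildtype, 1.88 and 1.94 in heterozygous and 1.84 and 2.10 in knockout, so the groups overlapped in that ratio.

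The other tropomyosin genes did not pass. Tpm4, a mostly cytoskeletal tropomyosin, differed by -0.25 ± 0.11 in the knockout (limma adjusted p = 0.202) and Tpm3 by 0.06 ± 0.08 (limma adjusted p = 0.724). Of the summed tropomyosin RPKM, Tpm1 made up 19.0% and 18.6% in wildtype, 16.4% and 15.4% in heterozygous and 18.2% and 16.0% in knockout libraries. Tpm2 made up 14.5% and 14.3%, 12.7% and 11.4%, and 14.5% and 10.6%. Wildtype and knockout overlapped in the share of Tpm2 but not in that of Tpm1. Tpm1 shares rest on the deposited gene length of 16289 bases, where the union of its exons in GRCm38 is 6485, and gene-level counts do not separate its muscle and cytoskeletal isoforms.

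**Figure D3:**
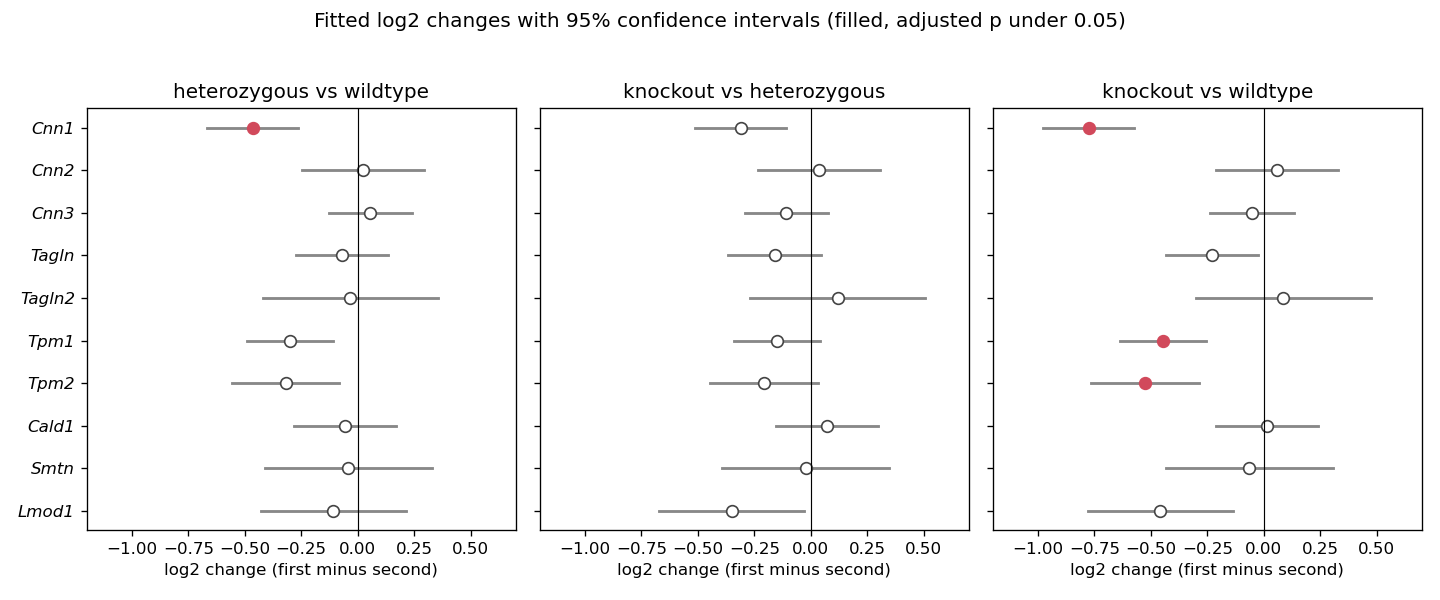
Fitted log2 changes (horizontal axis) of the 10 genes in heterozygous against wildtype, knockout against heterozygous and knockout against wildtype, with 95% confidence intervals as lines; filled points passed at an adjusted p under 0.05 in limma. Filled points are Cnn1 at -0.46 in the first panel and Cnn1, Tpm1 and Tpm2 at -0.77, -0.45 and -0.53 in the last.

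Caldesmon transcripts were high and showed no difference that passed. Cald1 (ENSMUSG00000029761, chromosome 6) encodes smooth muscle caldesmon and its shorter form of other cells, which gene-level counts do not separate. It measured 69727 and 75471 in wildtype, 66229 and 73484 in heterozygous and 76775 and 69963 in knockout libraries. All 3 groups overlapped. The knockout difference was 0.01 ± 0.10 (limma adjusted p = 0.951), with a 95% interval of 86.3% to 118% of wildtype. The interval of Cald1 does not reach the 69.8% at which the Tpm2 knockout mean lay.

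Smtn, which encodes the smooth muscle protein smoothelin, had the lowest level per length of the 10 genes, at 18.2 RPKM in wildtype. Smtn (ENSMUSG00000020439, chromosome 11) measured 2901 and 2667 in wildtype, 2788 and 2622 in heterozygous and 3267 and 2168 in knockout libraries. As for Tagln2, knockout replicate 1 was the highest and knockout replicate 2 the lowest of the 6, with a gap of 0.59 log2 units, above that of 86.5% of tested genes. The knockout difference was -0.06 ± 0.16 (limma adjusted p = 0.853; 95% interval -0.43 to 0.31). It was -0.36 without replicate 1 (limma adjusted p = 0.00232) and 0.23 without replicate 2 (limma adjusted p = 0.0325). Its exons share 16.3% of their bases with the antisense gene Gm11946, which had a mean of 541 scaled counts.

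Lmod1, which encodes the actin nucleator leiomodin 1 of smooth muscle, was lower in both knockout libraries but did not pass. Lmod1 (ENSMUSG00000048096, chromosome 1) measured 5394 and 5572 in wildtype, 5038 and 5128 in heterozygous and 4749 and 3347 in knockout libraries. The groups did not overlap, and the knockout libraries were 0.50 log2 units apart. The knockout mean was 73.8% of wildtype, a log2 difference of -0.46 ± 0.14 (limma adjusted p = 0.0699). The difference was -0.71 without replicate 1 (limma adjusted p = 7.14e-08) and -0.21 without replicate 2 (limma adjusted p = 0.0390). DESeq2 on the recovered reads gave -0.44 with an adjusted p = 0.0302. The heterozygous difference was -0.11 ± 0.14 (limma adjusted p = 0.811).

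The gap between the 2 knockout libraries was the largest of the 3 genotypes for 6 of the 10 genes, and not for Tagln, Cnn3, Tpm1 and Cald1. Knockout replicate 1 was the higher one in 9 of the 10 genes, all but Tagln, and the size of the gap ran from 0.01 for Tpm1 to 0.64 for Tagln2. In the wildtype and heterozygous groups no gap of the 10 genes was larger than 0.15. With 1 knockout library left out, the spread is estimated from the other 2 genotypes and the lone library is assumed to vary like them. In those fits the median log2 change of the 10 genes in knockout against wildtype was -0.30 without replicate 1 and -0.12 without replicate 2. It was -0.10 without wildtype replicate 1 and -0.21 without wildtype replicate 2, where the fit of all 6 libraries gave -0.15.

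**Figure D4:**
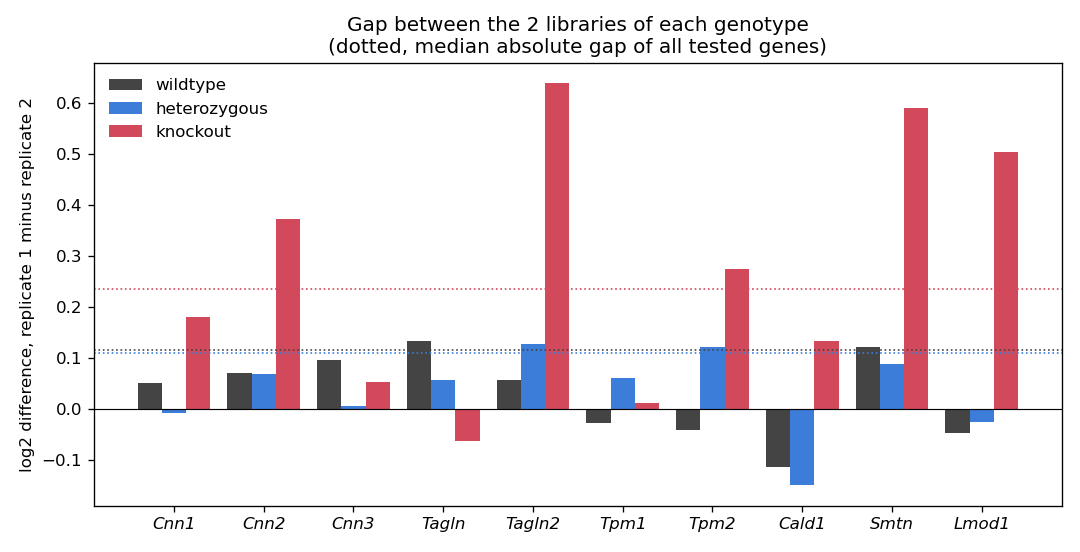
Log2 difference between replicate 1 and replicate 2 (vertical axis) for each of the 10 genes in wildtype, heterozygous and knockout (bars), with the median absolute difference of all tested genes per genotype as dotted lines. The knockout bars of Tagln2 (0.64), Smtn (0.59), Lmod1 (0.50) and Cnn2 (0.37) stand above the dotted knockout line at 0.23, and that of Tpm2 (0.28) is just above it.

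Knockout against heterozygous, the comparison in which both groups carried Cre, none of the 10 genes passed with limma, where 12.5% of all tested genes did, 8.09% lower and 4.39% higher. With edgeR and DESeq2 on the recovered reads the count was also 0. Of all 15781 tested genes 4006 had an unadjusted limma p under 0.05, and so did 2 of the 10 genes. These were Cnn1, at -0.31 ± 0.09 (limma adjusted p = 0.0528), and Lmod1, at -0.35 ± 0.14 (limma adjusted p = 0.160). Both knockout libraries were below both heterozygous libraries in 6 of the 10 genes (Cnn1, Cnn3, Tagln, Tpm1, Tpm2 and Lmod1), where 25.0% of all tested genes show that, and above them in none, against 25.4%. Cnn1 passed with quantile normalization (-0.34, limma adjusted p = 0.0231), without knockout replicate 1 (-0.40, limma adjusted p = 0.000269) and without knockout replicate 2 (-0.22, limma adjusted p = 0.0262).

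The order of the genotypes was examined for all 10 genes. Both knockout libraries lay below both wildtype libraries in 5 of 10 (Cnn1, Tagln, Tpm1, Tpm2 and Lmod1), against 25.4% of all tested genes, and above them in none, against 24.8%. For heterozygous below wildtype the count was 4 (Cnn1, Tpm1, Tpm2 and Lmod1), against 26.0%, and Cnn3 was higher without overlap, against 28.8%. Group means fell in the order wildtype, heterozygous, knockout for Cnn1, Tagln, Tpm1, Tpm2 and Lmod1, an order that 17.0% of tested genes share. All 6 libraries kept that order without overlap in 4 of 10, the same genes without Tagln, against 3.78% of tested genes. None of the 10 genes differed from the midpoint of wildtype and knockout in the heterozygous libraries with limma, edgeR or DESeq2. With limma 9.64% of all tested genes passed, 6.88% above and 2.76% below the midpoint. None of the 10 genes had an unadjusted limma p under 0.05, against 3223 of all 15781 tested genes. The heterozygous distance from the midpoint was -0.08 ± 0.08 for Cnn1, -0.07 ± 0.07 for Tpm1, -0.06 ± 0.09 for Tpm2 and 0.12 ± 0.12 for Lmod1, so values on either side of the midpoint remain within these errors.

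Levels per length spanned from 1312 RPKM for Tagln to 18.2 for Smtn in wildtype. Between them came Cnn2 (249 ± 8.54, SD, n = 2), Cnn3 (192 ± 9.02), Tagln2 (145 ± 4.04), Tpm1 (138 ± 1.92), Cnn1 (131 ± 3.24), Cald1 (129 ± 7.22), Tpm2 (106 ± 2.10) and Lmod1 (37.5 ± 0.86). Cnn1 and Cald1 did not differ beyond their spread, and the other neighbours did not overlap. This order rests on the deposited lengths. Like that of Tpm1, those of Cald1 (20200 bases) and Tpm2 (5729) exceeded the exon unions in GRCm38 (12041 and 2909). That of Tagln2 did so too (2631 against 2082), while that of Cnn3 was shorter than its exon union (2003 against 3037). By the deposited lengths, Cnn1 stood in the knockout at 76.9 ± 6.76 RPKM, close to Tpm2 at 73.9 ± 9.95 and below Tpm1 at 101 ± 0.59. Reads behind single values ran from 1774 for Smtn to 90076 for Cald1.

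Other actin and thin filament genes moved in both directions in the knockout. Of 18 listed genes 11 were tested, and in the knockout 3 of them rose, 2 fell and 6 missed the threshold (median 0.00). The 2 that fell were Actg2 and Acta2, the smooth muscle actins, at -1.72 ± 0.08 (limma adjusted p = 4.12e-06) and -0.45 ± 0.10 (limma adjusted p = 0.0188). Those that rose were Nebl, which encodes the actin-binding nebulette, at 1.66 ± 0.20, and the pointed-end capping tropomodulins Tmod2 and Tmod3, at 0.73 ± 0.13 and 0.42 ± 0.09. Actb and Actg1, the cytoplasmic actins, differed by 0.05 ± 0.13 and 0.00 ± 0.10 and did not pass. Heterozygous against wildtype, 2 of the 11 fell, Actg2 (-0.77 ± 0.08) and the skeletal actin Acta1 (-0.69 ± 0.10), none rose and 9 did not pass.

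Among 23 genes of smooth muscle myosin, its kinase and phosphatase and of anchoring proteins, 8 fell in the knockout and none rose, 15 missed the threshold, and the median change was -0.19. The 8 were the intermediate filament gene Des (-2.64 ± 0.10), the phosphatase inhibitor Ppp1r14a (-2.03 ± 0.35), the myosin light chain kinase Mylk (-1.37 ± 0.10), Pgm5 (-1.32 ± 0.14), the integrin Itga7 (-1.12 ± 0.14), the myosin heavy chain Myh11 (-1.11 ± 0.09), the light chain Myl9 (-0.65 ± 0.10) and Tns1 (-0.59 ± 0.13). In heterozygous libraries 5 of the 23 fell (Des, Itga7, Pgm5, Myh11 and Tns1), Myh10 and Itga8 rose and 16 did not pass. The change of Cnn1 lay between those of Myh11 and Myl9, and the log2 ratio of Cnn1 to Myh11 within a library was 1.19 and 1.28 in wildtype and 1.62 and 1.52 in knockout. That of Tagln to Myh11 was 3.98 and 3.98 in wildtype, 4.68 and 4.61 in heterozygous and 4.78 and 4.93 in knockout, without overlap between the groups. Against Acta2, in contrast, Cnn1 was lower in both Cre+ groups: the log2 ratio was -3.77 and -3.71 in wildtype, -4.06 and -4.04 in heterozygous and -4.07 and -4.06 in knockout. The mean log2 ratio of Tpm1 to Acta2 was -0.88 ± 0.10 in wildtype and -0.88 ± 0.13 in knockout (SD, n = 2). The exact permutation test of these ratios has the same floor of p = 0.333.

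Of 14 measured genes for SRF, its cofactors and factors that oppose it, 3 passed higher and 3 lower in the knockout and 8 did not pass, with a median of -0.13. Myocd, the SRF coactivator of smooth muscle, fell by 1.32 ± 0.26 on the log2 scale from 62.7 and 66.9 to 20.8 and 30.6 scaled counts, and the LIM proteins Csrp1 and Csrp2 fell by 0.66 ± 0.12 and 0.65 ± 0.11. Klf5, Elk3 and Prrx1 rose, by 1.52 ± 0.22, 0.43 ± 0.10 and 0.39 ± 0.09. Srf itself measured -0.12 ± 0.19 and the coactivators Mkl1 and Mkl2 -0.20 ± 0.16 and 0.23 ± 0.11, and these 3 did not pass. Srf shows the same split between the knockout libraries as Smtn and Tagln2, 2988 in replicate 1 and 1848 in replicate 2, with 2769 and 2347 in wildtype. In heterozygous libraries 1 of the 14 fell, Csrp2 (-0.52 ± 0.11), and 13 did not pass.

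**Figure D5:**
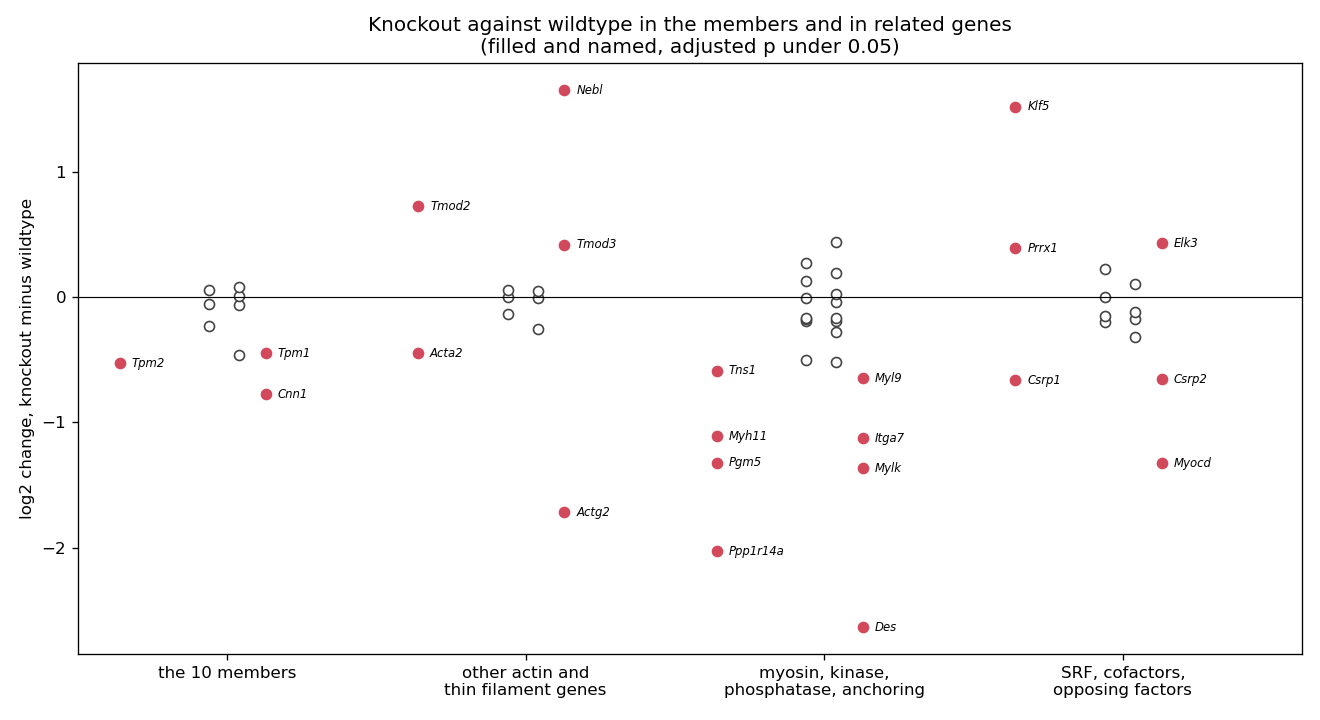
Log2 change of knockout against wildtype (vertical axis) for each tested gene, in 4 groups side by side: the 10 genes, other actin and thin filament genes, the myosin and anchoring genes, and SRF with its cofactors and opposing factors. Filled, named points passed at an adjusted p under 0.05 in limma. The 3 named among the 10 genes lie between -0.45 and -0.77, and Des marks the lowest value at -2.64.

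Profiles over the 6 libraries were compared by the Euclidean distance of centred log2 values, as a description. The genes outside the group were 11030 tested genes with a mean of 50 or more. Symbols of predicted models (Gm with a number, or Rik) were left out. The 3 genes nearest to Cnn1 were Slc7a5 at a distance of 0.06, which encodes an amino acid transporter, Ldb3 at 0.08, which encodes a PDZ-LIM protein of the Z disc, and Asns at 0.10, asparagine synthetase. Slc7a5 measured 2433 and 2236 scaled counts in wildtype, 1662 and 1707 in heterozygous and 1476 and 1298 in knockout libraries. The nearest of the other 9 genes to Cnn1 was Tpm2 at 0.28, and 57 genes outside the group were closer. Tpm1 and Tpm2 were each other's nearest, at 0.21, with 76 other genes closer to Tpm1 and 27 closer to Tpm2. Among the 10 genes, Smtn and Tagln2 were each other's nearest at 0.18, and Tagln and Cnn3 at 0.21. Outside the group, 78 genes were closer to Smtn, 67 to Tagln2, 432 to Tagln and 1048 to Cnn3. For Tagln the nearest genes outside were Araf, Igfbp7 and Atpif1, for Smtn Lemd2, Mark2 and Tnk2, and for Lmod1 Rpain, Sox12 and Wasf3, at distances from 0.06 to 0.15. The deposited annotation gave the term actin binding to 4 of the 10 genes (Cnn1, Cnn3, Tpm2 and Lmod1), against 1.15% of the tested genes. The set was drawn from families that bind actin, so this difference follows from the choice of genes.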

How the data were processed

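The table held 1 column per library. The build mm9, DESeq 1.16.0, HTSeq 0.5.4p3 and TopHat2 2.0.4 are listed, without roles or strand setting, per the submitters' processing notes. The deposited signal values were read counts divided by 1 size factor per library: 100% of them were whole multiples of 1 step within 0.001, from which reads were recovered. RPKM values as deposited are means of a group and were shared out here to its libraries in proportion to their scaled values. The authors' log2 ratios ran in reverse of their names and were turned, and the authors' p-values are quoted only where the deposited table is named.

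Log2(scaled value + 1) of 15781 genes was fitted with limma 3.58.1 (R 4.3.3), with a variance prior that follows the mean (the mean trend) and the 6 libraries together (residual degrees of freedom 3, prior 6.17). Genes passed at a Benjamini-Hochberg adjusted p under 0.05. Fold changes of low genes are understated on this scale. The code was tested on simulated data. Alternatives were other pseudocounts, filters and scalings, no mean trend, edgeR 4.0.16, DESeq2 1.42.0, a replicate block, only the groups compared, and each library left out. The 10 genes were all named, as were up to 4 genes per list with the smallest p, any other list gene that passed, and the nearest profiles of 4 of the 10. The genes and lists were chosen with earlier results of these data known. Epithelial, neural and erythroid marker lists were also read. Coordinates and exon overlaps come from GRCm38, not mm9, and were used for sequences and annotation only. Intervals cover counting and replicate spread as the fit estimates it.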

Additional observations from a re-analysis of the deposited data

How the results depend on the processing

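The limits are 2 libraries per genotype, Cre and, by the Y-linked genes, sex that go with genotype, gene-level counts without isoforms, and a strand setting not given in the sources used here. Over the log2 values of the 10 genes (for the midpoint, of Cnn1, Tpm1 and Tpm2) and the alternatives that left out no library, 345 values kept direction and side of the threshold, 5 turned, 8 gained a call in the same direction and 2 lost one. With a library left out, 154 values held, 19 turned (3 of them passing the threshold in the new direction), 17 gained a call in the same direction and 8 lost one. Of the 10 genes, 3 passed in knockout against wildtype in the values given above, 2 without a mean trend, 4 with DESeq2 and 4 with the replicate block, and 1 to 8 with a library left out. Heterozygous against wildtype the count of 1 became 0 without a mean trend, 2 with edgeR and 2 with DESeq2 (Cnn1 and Tpm1 in both) and 3 with only the 2 groups compared, and 0 to 3 with a library left out. Knockout against heterozygous the count of 0 became 1 with quantile normalization (Cnn1, -0.34), 1 with the replicate block and 0 to 4 with a library left out. Against the midpoint it was 0 to 1 with a library left out. Fits with fewer libraries have fewer degrees of freedom, and those without a knockout library take the spread from the other genotypes.

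Over all tested genes, 1977 passed in knockout against wildtype, 864 to 5605 with a library left out. For heterozygous against wildtype 1274 became 3029 with only the 2 groups compared and 320 to 3017 with a library left out, for knockout against heterozygous 1968 became 806 to 5668, and for the midpoint 1522 became 540 to 4414. On the recovered reads edgeR called 2040, 1379, 2035 and 1580 genes in these comparisons, taken in the same order, and DESeq2 1767, 1199, 1730 and 1386.

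Replicate numbers link the libraries only by number: replicate differences correlated over 15781 genes at 0.17 between wildtype and heterozygous, 0.20 between wildtype and knockout and 0.14 between heterozygous and knockout, and replicate 1 is the deeper library in each group. With the number as a replicate block, 2487, 1572, 2510 and 1865 genes passed in the 4 comparisons, in that order. Of the 10 genes, the block added Lmod1 in knockout against wildtype (limma adjusted p = 0.0344) and Cnn1 in knockout against heterozygous (limma adjusted p = 0.0268).

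Some log2 values changed sign, and the cause was not tested. With quantile normalization Cald1 heterozygous against wildtype was 0.0084, Cnn2 knockout against heterozygous -0.034 and the Tpm2 distance from the midpoint 0.0076. Smtn knockout against heterozygous was 0.0075 with DESeq2 and 0.014 with edgeR. The ranges with a library left out are as follows. In knockout against wildtype Cald1 lay between -0.052 and 0.082, Cnn2 between -0.13 and 0.25, Smtn between -0.36 and 0.23, and Tagln2 between -0.23 and 0.41. In heterozygous against wildtype Cald1 lay between -0.13 and 0.019, Cnn2 between -0.012 and 0.058, Smtn between -0.10 and 0.020, and Tagln2 between -0.096 and 0.032. In knockout against heterozygous Cald1 lay between -0.0038 and 0.15, Cnn2 between -0.15 and 0.22, Smtn between -0.32 and 0.27, and Tagln2 between -0.20 and 0.44. The Tpm2 distance from the midpoint lay between -0.12 and 0.013.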

Other observations

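Acta1, the skeletal muscle actin gene, was lowest in the heterozygous libraries. Its scaled read counts were 8551 and 7273 in wildtype, 4961 and 4801 in heterozygous and 7448 and 6943 in knockout libraries. Both heterozygous libraries lay below the other 4. Acta1 lay -0.63 on the log2 scale from the midpoint of wildtype and knockout (limma adjusted p = 0.00134), fell by 0.69 ± 0.10 against wildtype (limma adjusted p = 0.00267) and was 0.56 higher in knockout than in heterozygous (limma adjusted p = 0.00505). Against wildtype the knockout difference of -0.13 ± 0.10 did not pass (limma adjusted p = 0.460).

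In Mylk, the myosin light chain kinase gene, the heterozygous libraries lay on the other side of the midpoint. Heterozygous against wildtype, Mylk differed by -0.05 ± 0.10 (limma adjusted p = 0.894) and did not pass. It measured 5136 and 4974 in wildtype, 4845 and 4927 in heterozygous and 2125 and 1811 in knockout libraries. Heterozygous libraries lay 0.63 above the midpoint on the log2 scale (limma adjusted p = 0.00113). Des, the desmin gene, lay -1.17 from it (limma adjusted p = 4.32e-05), with 5720 and 5098 in wildtype, 974 and 944 in heterozygous and 924 and 814 in knockout libraries.

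Among markers of other cell types, epithelial and mesothelial markers summed to 2549 to 2589 scaled counts in wildtype, 1027 to 1089 in heterozygous and 1690 to 1908 in knockout libraries; of 6 tested, 5 fell in heterozygous and 2 in knockout libraries against wildtype, and none rose. Neural and Schwann cell markers summed to 908 to 949, 689 to 691 and 1253 to 1389. Of the 5 tested, Stmn2 and S100b rose in knockout against wildtype and 3 did not pass, among them Tubb3, with a median of -0.20, and Stmn2 took 625 and 563 of the knockout sums. Erythroid markers stayed at or below 14.7.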
